A study of Mus musculus with 12 samples.

Results

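The Zfp genes of the mouse encode zinc finger proteins, a large family in which many, but not all, are DNA-binding factors. They are taken here as the genes whose symbol is Zfp followed by digits alone. The expression table held 272 of them among 12158 genes. Of these, 271 passed a filter on low values (a mean above -2 log2 RPKM over all libraries), as did 12102 genes in all. RPKM is a read count scaled by transcript length and library size, so levels can be set side by side between genes.

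The study followed RNA in bulk forebrain of C57BL/6N mice, in animals heterozygous for a germline Chd8 deletion (Chd8+/del5) and in their wild-type littermates, at embryonic days e12.5, e14.5 and e17.5, on the day of birth (P0) and in adult animals with the label P56. Chd8 is a chromatin remodelling enzyme, and every cell of a heterozygote carries the mutation. The table has 44 libraries, 8 of e12.5, 9 of e14.5, 10 of e17.5, 11 of P0 and 6 of adults. Column names give the stage of a library but not, in any terms the labels explain, its genotype, so both genotypes are mixed in every group below and no comparison of heterozygous with wild-type animals was made. Chd8 itself had stage medians between 3.72 log2 RPKM in adults and 4.31 at e12.5. Levels are given as the lowest, median and highest library of a stage, with no p-value, and nothing says that each library is a separate animal. A gene is called higher or lower where the library ranges of 2 stages do not overlap, a rule that grows stricter with more libraries.

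Zinc finger proteins of the C2H2 type read DNA through arrays of fingers held by a zinc ion. The largest group, the KRAB zinc finger proteins, carries a second domain that recruits the corepressor Trim28 and with it the histone methyltransferase Setdb1, which lays down the silencing mark H3K9me3, in many cases over transposable elements. Their genes lie in clusters of related neighbours, while other C2H2 members act alone as regulators of neural or other development. Near-identical stretches between neighbours can share reads, and the authors' handling of such reads is not given in the sources used here, so values of close paralogs are uncertain.

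The family stood at a steady level in the embryo and lower at P0 and in adults. The median member had 3.03, 3.07 and 3.14 log2 RPKM at e12.5 (lowest, median and highest library), 3.01, 3.13 and 3.22 at e14.5, and 2.999, 3.07 and 3.16 at e17.5. It had 2.74, 2.86 and 2.96 at P0 and 2.26, 2.38 and 2.71 in adults. All 11 P0 libraries lay below all embryonic ones, and all 6 adult libraries below all P0 ones. The median of all genes stayed between 3.63 and 3.70 over the 5 stages, so the family stood at -0.62, -0.54, -0.56, -0.76 and -1.32 log2 units relative to it from e12.5 to adult.

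**Figure D1:**
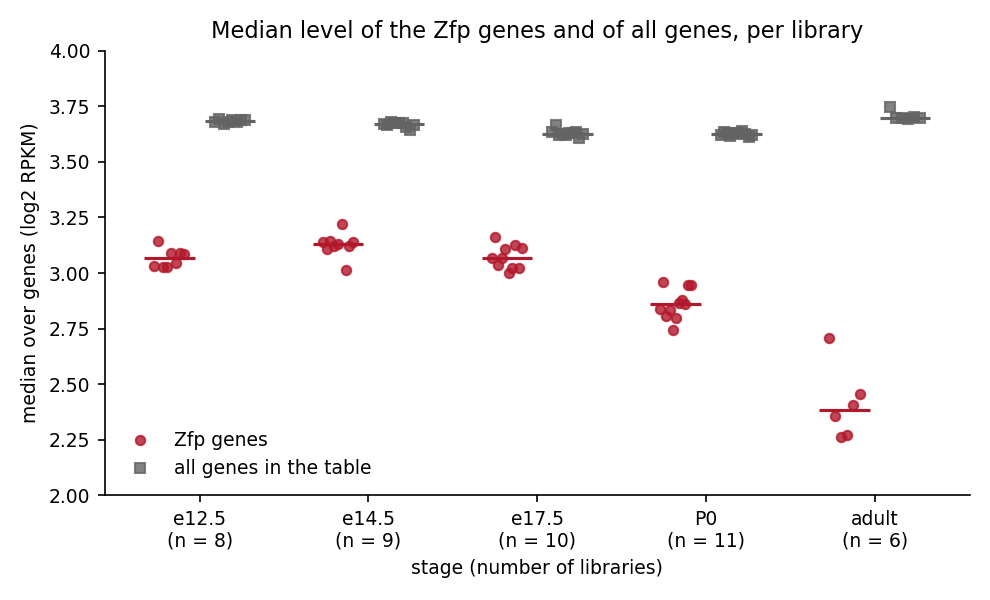
Median log2 RPKM of the Zfp genes (red circles) and of all genes (grey squares) in each of the 44 libraries, by stage from e12.5 to adult; horizontal lines are stage medians. The Zfp median lies at 2.38 in adults and 2.86 at P0, below the embryonic stages, while the median of all genes stays between 3.63 and 3.70.

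Member by member, the adult stage was most often the low point. The lowest of the 5 stage medians was the adult one for 173 of 272 members (63.6%), against 37.5% of all genes. Only 21 members (7.72%) had their highest stage median in adults, against 34.3% of all genes. The highest stage median fell at e14.5 for 65 members (23.9%) and at e17.5 for 62 (22.8%), against 10.6% and 6.09% of all genes. At e12.5 the shares were close, 92 members (33.8%) and 34.2% of all genes. Stage medians declined at every step for 47 members (17.3%, and 14.2% of all genes) and climbed at every step for 5 (1.84%, and 14.48% of all genes): Zfp112, Zfp365, Zfp523, Zfp612 and Zfp651. The spread of a member's 5 stage medians was 1.13 log2 units in the middle of the family and 1.37 over all genes, so members as a set did not move more than other genes did.

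**Figure D2:**
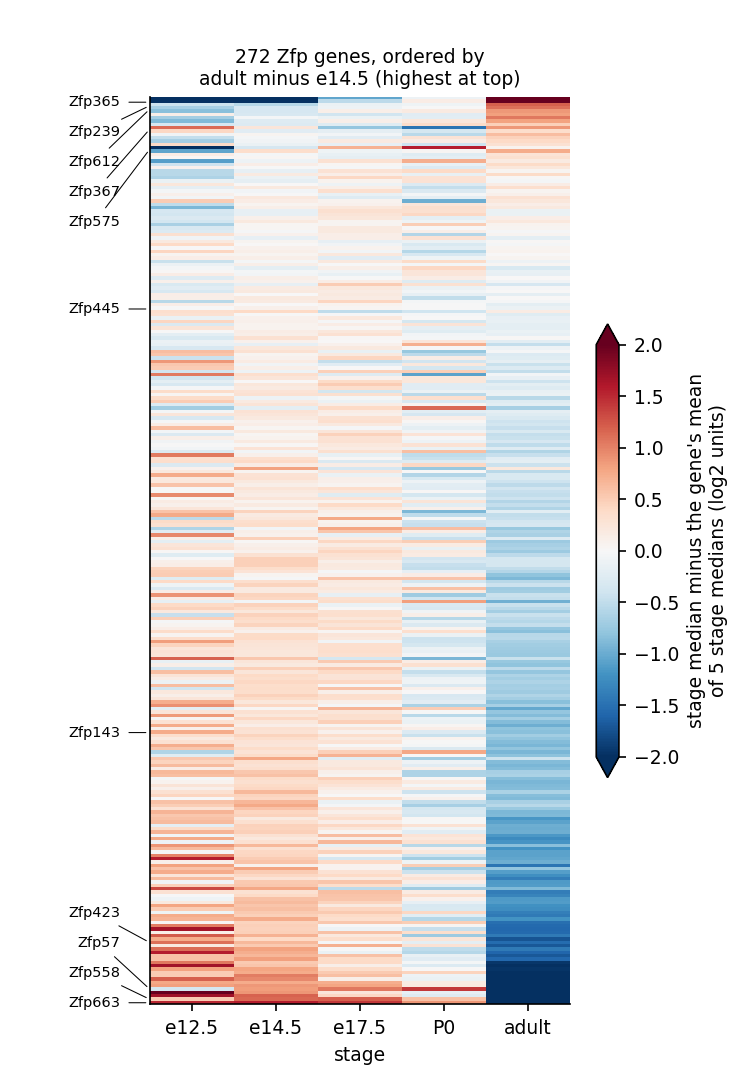
Stage medians of 272 Zfp genes (rows) from e12.5 to adult (columns), each as its distance in log2 units from the gene's own mean over the 5 stages, red above and blue below. Rows are ordered by adult minus e14.5 with the highest at the top, and the adult column is blue for most rows, with 173 members at their lowest there.

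Between adults and e14.5, the widest interval read with the same read length, 156 of 271 members were lower in adults and 13 were higher, and the ranges of 102 overlapped. Over all genes, 32.4% were lower and 30.8% higher. The median difference (adult minus e14.5) was -0.81 log2 units for members and -0.10 for all genes, and 231 members (85.2%) had a negative difference, against 53.6% of all genes. At least a 2-fold difference was reached by 96 of the lower and 7 of the higher members, a count with no share of all genes computed beside it. The lower and upper quartiles of the difference were -1.23 and -0.26 for members and -0.84 and 0.81 for all genes. Of these quartiles, only the lower one of members lay beyond a 2-fold difference. Over this interval, 56 of 91, 49 of 89 and 51 of 91 members of high, middle and low mean level were lower. Their median differences were -0.91, -0.82 and -0.65, and the steps within the interval differed by level, as given below.

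**Figure D3:**
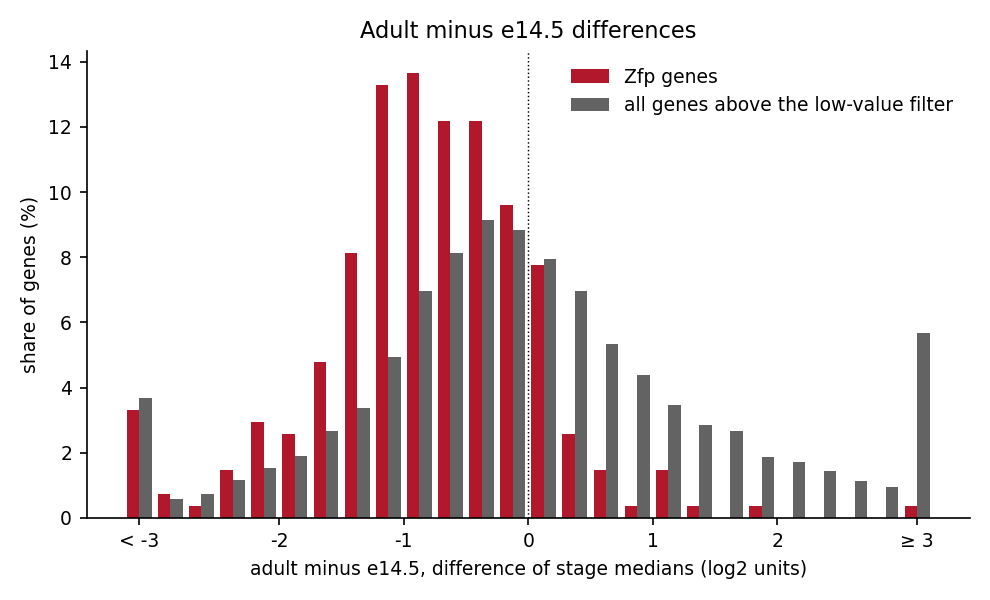
Shares of genes by their adult minus e14.5 difference of stage medians (log2 units, bins of 0.25, with open bins at both ends), for 271 Zfp genes (red) and 12102 genes (grey). The Zfp genes are centred at -0.81 with few members to the right of 0, while all genes are centred at -0.10.

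The fall came in steps. At e14.5 against e12.5, 60 members were higher and 44 lower, against 23.1% and 22.3% of all genes, which are shares close to the family's own 22.1% and 16.2%. Only the e12.5 libraries were paired-end, with 100 bp reads, and all later ones were single-end with 50 bp, so stage and read type cannot be told apart. At e17.5 against e14.5, 15 members were higher and 24 lower, against 13.1% and 12.1% of all genes. The first family-wide shift lay between e17.5 and P0: at P0 against e17.5, 66 members (24.4%) were lower and 5 higher, against 6.28% and 4.89% of all genes, with a median difference of -0.29 for members and -0.00 for all genes. At P0 against e14.5, 104 members were lower and 20 higher, against 23.1% and 22.7% of all genes. From P0 to adult the fall went on, with 98 members lower in adults and 28 higher, against 25.2% and 29.3% of all genes. The median difference was -0.40 for members and -0.01 for all genes. By mean level the steps differed. At P0 against e14.5, 29, 37 and 38 members of high, middle and low level were lower, and 10, 6 and 4 higher. In adults against P0, 46, 31 and 21 were lower, and 8, 7 and 13 higher. The median differences were -0.21, -0.32 and -0.45 in the former comparison and -0.62, -0.40 and -0.24 in the latter. Shares of all genes by mean level were not computed. These comparisons share libraries, so they are not independent of each other.

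The e17.5 columns carry a pair of number series in their names, with 5 libraries each. No member had ranges apart between the series. Fewer libraries make ranges part more often. With the 3-digit series alone, 97 members (35.8%) were lower and 7 (2.58%) higher at P0 against e17.5, against 11.1% and 11% of all genes. With the 1-digit series alone, 72 (26.6%) were lower and 10 (3.69%) higher, against 8.18% and 7.02% of all genes. Low e17.5 values also lacked the whole-read steps seen at other stages. In the median library 21.4% of them lay within 0.03 steps of a whole multiple, with the step fitted per library, against 70.8% to 77.8% elsewhere, where the adult value rests on 2 of 6 libraries. Whether they were scaled apart is not given in the sources used here.

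In bulk tissue, fewer cells of a type and less RNA per cell cannot be told apart, and the makeup of the forebrain changed over the same stages. The summed level of 5 markers of dividing cells had medians of 401, 172, 51.6, 26.4 and 1.54 RPKM from e12.5 to adult, with all 5 markers under 1 RPKM in adults, and that of 6 radial glia markers 1477, 1359, 1057, 887 and 103 RPKM. From e14.5 to P0 most of the radial glia sum was Fabp7, which was higher at e14.5 than at e12.5 by 0.94 log2 units, while the other 5 fell by 0.73 to 1.49. Over the same stages 5 mature neuron markers summed to 60.5, 136, 257, 354 and 4207 RPKM, 5 astrocyte markers to 13.1, 21.6, 35.3, 64.3 and 420 RPKM, and 7 oligodendrocyte lineage markers to 38.6, 33.8, 63.3, 108 and 1275 RPKM. Between e17.5 and P0, where the family first fell, summed dividing cell markers ranged from 19.2 to 36.5 RPKM at P0 and from 38.4 to 64.4 at e17.5. Gene by gene, 2 of these 5 were lower at P0, beside 6.28% of all genes. In the same interval 2 of 5 astrocyte, 2 of 7 oligodendrocyte lineage and 1 of 5 mature neuron markers were higher, beside 4.89% of all genes. In each of these groups 0 went the other way. 4 microglia markers had medians of 12.0, 13.5, 14.7, 14.1 and 91.4 RPKM, and 5 markers of new neurons 1100, 1722, 2177, 2426 and 362 RPKM, among which Eomes fell by 2.26 log2 units at P0 against e14.5. The part of cell makeup in the family's fall was not tested.

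A single adult library, the first in the table's order, stood between the other adults and P0. Its family median was 2.71, against 2.26 to 2.46 in the other 5. It was the highest of the 6 adults for 147 members and the lowest for 22. Its dividing cell markers summed to 17.3 RPKM and its radial glia markers to 443 RPKM, both the highest among adults, and its mature neuron markers to 3013 RPKM, the lowest. Without it, 174 members were lower and 14 higher in adults than at e14.5 (35.4% and 32.1% of all genes), and 133 were lower and 28 higher than at P0 (30.0% and 31.2%).

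Promoter letters, which the choice by symbol did not use, were compared next. RefSeq windows of the GRCm38.p6 assembly, 250 bases before to 50 after the annotated start, were matched for 222 members. A 12-letter pattern of the kind bound by ZNF143, a zinc finger activator whose mouse gene Zfp143 is itself a member, was searched on both strands as ACTACANNNCCC, where N is any base. It was chosen after windows of some members had been read. Those windows are counted here too, so the share among members is not independent of that choice. The pattern lay in 44 member windows (19.8%), in 5.14% of the 9221 windows of genes in the expression table and in 2.28% of all 27025 windows, sets that include the members. Among members with another member as their nearest gene on either side it lay in 29 of 102 (28.4%), and among the rest in 15 of 119 (12.6%). For the other motifs, member windows lay nearer to those of table genes than for this pattern, while all windows differed from both for some. CCGGAAG, the core read by ETS factors, lay in 21.6% of member windows, 17.9% of table genes and 9.12% of all windows. The cAMP element TGACGTCA lay in 1.80%, 3.42% and 1.88%, the YY1 core AAGATGGCG in 4.05%, 3.33% and 1.49%, and TATAAA in 6.76%, 6.34% and 14.2%. A match is a description of these letters, not of a bound site.

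**Figure D4:**
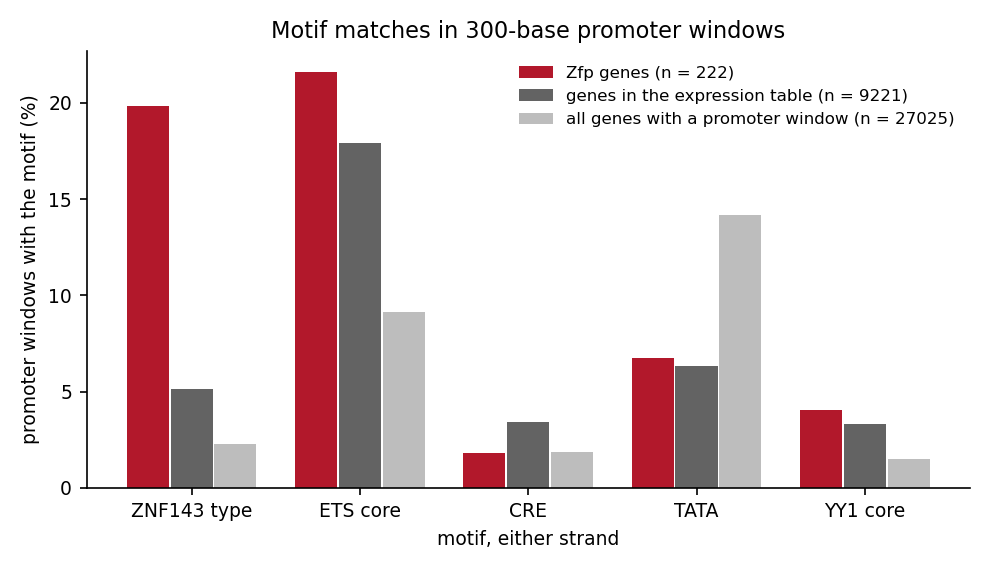
Share of 300-base promoter windows with a match to each of 5 motifs on either strand, for 222 Zfp genes (red), 9221 genes of the expression table (dark grey) and 27025 genes in all (light grey). The ZNF143-type pattern is the one with the widest gap, 19.8%, 5.14% and 2.28%, and was chosen after windows of some members had been read.

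Windows of 6 members described below show the pattern, or its absence, in genes that moved differently. Zfp112 and Zfp180 were higher in adults and lie beside each other and Zfp235, at chr7:24112070-24112369, chr7:24081647-24081946 and chr7:24132122-24132421 of GRCm38.p6, all on the plus strand. Zfp146 and Zfp773 were lower in adults, at chr7:30169692-30169991 on the minus and chr7:7136706-7137005 on the minus strand. Zfp365, at chr10:67912613-67912912 on the minus strand, was the member with the highest adult rise among those above the filter. Each is printed 5′ to 3′ along its gene's strand, and capitals mark matches to ACTACANNNCCC, CCGGAAG or TATAAA or to their reverse complements.
Zfp112: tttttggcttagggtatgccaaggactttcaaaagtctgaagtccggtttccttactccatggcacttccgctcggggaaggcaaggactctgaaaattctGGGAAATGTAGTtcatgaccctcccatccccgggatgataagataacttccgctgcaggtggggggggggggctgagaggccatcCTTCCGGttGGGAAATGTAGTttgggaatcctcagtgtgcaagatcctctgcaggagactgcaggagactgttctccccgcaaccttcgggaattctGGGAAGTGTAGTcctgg
Zfp180: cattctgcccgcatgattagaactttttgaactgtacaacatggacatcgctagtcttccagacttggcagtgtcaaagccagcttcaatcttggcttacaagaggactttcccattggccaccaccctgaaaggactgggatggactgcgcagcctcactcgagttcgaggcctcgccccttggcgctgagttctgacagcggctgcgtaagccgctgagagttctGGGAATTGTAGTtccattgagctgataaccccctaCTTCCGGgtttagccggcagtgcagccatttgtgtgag
Zfp235: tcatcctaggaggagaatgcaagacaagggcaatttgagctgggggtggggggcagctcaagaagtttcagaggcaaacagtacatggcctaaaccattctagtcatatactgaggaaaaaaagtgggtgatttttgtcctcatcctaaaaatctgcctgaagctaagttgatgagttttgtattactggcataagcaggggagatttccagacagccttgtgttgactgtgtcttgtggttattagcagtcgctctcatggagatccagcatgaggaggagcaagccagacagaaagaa
Zfp146: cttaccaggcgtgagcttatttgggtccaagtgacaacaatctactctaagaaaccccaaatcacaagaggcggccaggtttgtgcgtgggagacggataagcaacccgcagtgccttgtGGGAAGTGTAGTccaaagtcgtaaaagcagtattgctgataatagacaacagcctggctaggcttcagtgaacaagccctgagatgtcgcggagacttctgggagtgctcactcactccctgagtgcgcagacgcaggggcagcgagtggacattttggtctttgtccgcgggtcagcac
Zfp773: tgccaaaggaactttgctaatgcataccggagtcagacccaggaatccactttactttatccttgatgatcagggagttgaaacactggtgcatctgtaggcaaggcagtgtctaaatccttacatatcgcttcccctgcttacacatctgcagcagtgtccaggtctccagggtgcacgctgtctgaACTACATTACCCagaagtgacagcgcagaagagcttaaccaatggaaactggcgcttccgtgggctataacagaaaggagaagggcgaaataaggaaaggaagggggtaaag
Zfp365: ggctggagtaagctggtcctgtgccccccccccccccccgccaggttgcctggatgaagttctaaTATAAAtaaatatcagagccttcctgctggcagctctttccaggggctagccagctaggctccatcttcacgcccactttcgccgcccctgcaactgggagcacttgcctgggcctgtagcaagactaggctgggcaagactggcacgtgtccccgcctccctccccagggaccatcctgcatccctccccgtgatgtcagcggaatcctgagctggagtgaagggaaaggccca
The Zfp112 window held 3 ZNF143-type matches and the Zfp180 window 1, while those of Zfp235 and Zfp365 held 0. Zfp365 was the one of these with a TATAAA match.

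Members with and without the ZNF143-type pattern were lower in adults than at e14.5 in shares close to each other. In adults against e14.5, 27 of 44 members with it were lower (61.4%), as were 102 of 178 without it (57.3%), with median differences of -0.81 in both. Of all genes, 32.4% were lower in that interval. At P0 against e17.5 the shares were further apart, 18 of 44 (40.9%) with the pattern and 40 of 178 (22.5%) without, where 6.28% of all genes were lower. The median differences were -0.48 and -0.27. At P0 against e14.5 the shares lower were 43.2% with the pattern and 37.1% without, beside 23.1% of all genes. In adults against P0 their order was reversed, 29.5% with it and 38.2% without, beside 25.2% of all genes. The gaps between members with and without the pattern were not tested. Zfp143 was lower in adults as well, with 2.26, 2.50 and 2.79 log2 RPKM in adults against 3.35, 3.63 and 3.71 at e14.5. Its ranges at P0 and e17.5 overlapped, 2.69 to 3.21 and 2.93 to 3.70. Any link between its level and that of members with the pattern was not tested.

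Members inside and outside gene clusters both fell. By RefSeq order among protein-coding genes, 123 members had another member beside them and 148 had none, counting 271 matched symbols. In adults against e14.5, 78 of 123 with a neighbouring member were lower and 3 higher, with a median difference of -0.85, and 78 of 147 without one were lower and 10 higher, with a median of -0.75, where 32.4% of all genes were lower and 30.8% higher. At e14.5 against e12.5, across the change of read type, 35 of 123 were higher and 11 lower with a neighbour, against 25 of 147 higher and 33 lower without, where 23.1% of all genes were higher and 22.3% lower. There were 16 runs of at least 3 members, and the longest, of 15 from Zfp84 to Zfp146, had 10 lower members and 0 higher in adults against e14.5. Of the 16 runs, only that of Zfp180, Zfp112 and Zfp235 held a member higher in adults than at e14.5, while 5 other runs held 1 each that was higher in adults than at P0.

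That run of 3 went against the family in adults. Zfp180 had 4.40, 4.68 and 5.02 log2 RPKM in adults, against 3.85, 4.11 and 4.37 at e14.5 and 3.43, 3.53 and 3.69 at P0, so that it was lowest at birth and highest in adults. Its rise over e14.5 was 0.57 log2 units, from ranges just apart, which overlapped after centring or quantile normalization. Zfp112 climbed stage by stage, with medians of 0.01, 0.64, 1.01, 1.13 and 1.70, and its adult libraries, 1.47 to 1.86, all exceeded those of e14.5, 0.23 to 0.74. Zfp235 had 2.34, 2.48 and 2.75 in adults against 1.70, 1.94 and 2.04 at P0, and its adult range overlapped that of e14.5. All 3 were higher in adults than at P0, by 1.15, 0.57 and 0.53 log2 units for Zfp180, Zfp112 and Zfp235.

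Zfp365 rose more than any other member above the filter. It encodes a DISC1-binding zinc finger protein, also called DBZ, known from neurons and oligodendrocytes. Its medians were 0.87, 0.94, 2.43, 3.11 and 7.44 log2 RPKM from e12.5 to adult. Adult libraries lay between 6.74 and 7.65, against 0.70 to 1.35 at e14.5, a difference of 6.50 log2 units or 90.3-fold on the deposited scale, whose unstated prior count understates folds of low genes. Most of it, 4.33 log2 units, came after birth. The first adult library was the lowest of the 6 at 6.74.

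Zfp831 was the 1 member left out by the filter, and its levels are given for completeness, having been looked at after the others. It had 1.64, 1.95 and 2.14 log2 RPKM in adults, against -6.36, -4.40 and -3.91 at P0 and -7.02, -7.02 and -5.55 at e14.5. Its earlier libraries lie near the table's floor, so no fold is given.

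The other members named for a rise moved far less. Zfp239 had 4.01, 4.23 and 4.56 log2 RPKM in adults against 2.30, 2.47 and 2.63 at e14.5, a difference of 1.77, and was already higher at e17.5 than at e14.5. Zfp612 had 3.63, 3.92 and 4.004 in adults against 2.24, 2.47 and 2.90 at e14.5, a difference of 1.45. These libraries did not overlap, and most of both rises came between P0 and adult, 1.27 and 1.12 log2 units. Zfp651 rose by 1.22, from libraries of 4.20 to 4.55 in adults against 2.78 to 3.38 at e14.5, and Zfp839 by 1.14, with 1.82 to 2.30 in adults against 0.60 to 1.27. Zfp941 rose by 1.09 and Zfp523 by 0.75. Zfp106, an RNA-binding protein needed for motor neuron and muscle function, had 4.83, 4.93 and 5.10 in adults against 3.91, 4.36 and 4.54 at e14.5, and its adult level returned to about that of e12.5, 4.85 to 5.10. Apart from Zfp365, the rises named here stayed between 0.57 and 1.77 log2 units.

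**Figure D5:**
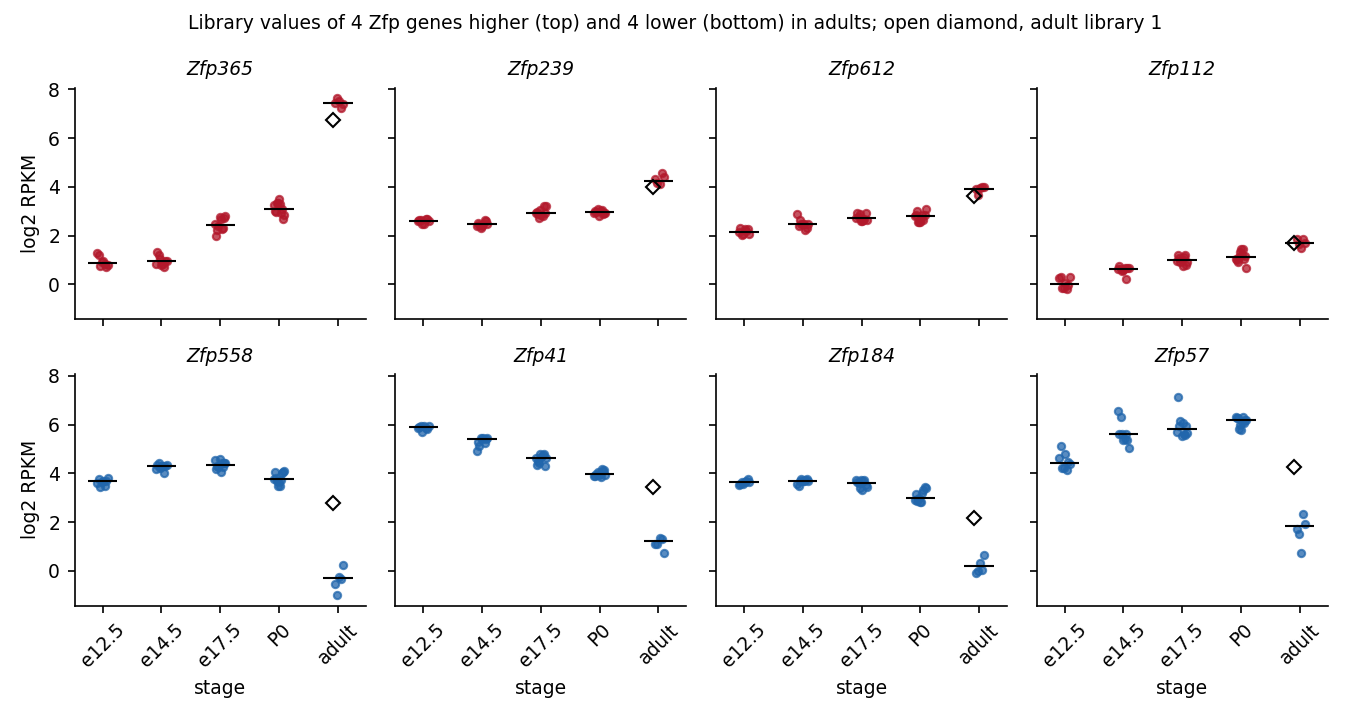
Log2 RPKM of each library from e12.5 to adult for 4 Zfp genes higher in adults (top, red) and 4 lower (bottom, blue); horizontal lines are stage medians and open diamonds mark the first adult library. Zfp365 reaches 6.74 to 7.65 in adults, and in the 4 lower genes the diamond lies above the other 5 adults.

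The deepest falls left low adult medians, below 1 RPKM (0 on the log2 scale) for Zfp663 and Zfp558 and 1.21 log2 RPKM for Zfp41. Zfp663 had -5.45, -5.13 and -0.26 log2 RPKM in adults against 1.37, 1.82 and 2.12 at e14.5, and since 3 adult libraries lie at the lowest value of the row no fold is given. Zfp558 had -0.99, -0.28 and 2.79 in adults against 4.01, 4.32 and 4.45 at e14.5, 24.3-fold lower in the adult median. Zfp41 had 0.74, 1.21 and 3.45 in adults against 4.94, 5.40 and 5.47 at e14.5, 18.3-fold lower. In all 3 the highest adult value is that of the first adult library, and the other 5 stayed at or below -4.75, 0.25 and 1.35. Zfp41 fell at each step, from a median of 5.90 at e12.5, while Zfp558 had medians of 3.68, 4.32, 4.36 and 3.76 from e12.5 to P0, with overlapping ranges from e14.5 on, and differed by -4.04 in adults against P0.

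Zfp184 had -0.07, 0.18 and 2.17 log2 RPKM in adults against 3.51, 3.69 and 3.78 at e14.5, a difference of -3.51. Zfp618, whose protein partners Uhrf2, had -1.93, -1.19 and 0.83 in adults against 1.49, 2.65 and 2.88 at e14.5, a difference of -3.84. It had already differed by -1.13 at e14.5 against e12.5. Zfp229, Zfp773 and Zfp647 differed by -3.15, -3.05 and -2.96. Without the first adult library these 5 members reached at most 0.66, -0.77, -0.45, -0.27 and 0.89 in adults, all below every e14.5 library. They share a late course, with stage medians that moved by less than 1 log2 unit from e14.5 to e17.5 and the larger part of the fall after P0.

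The highest stage median fell at P0 for 32 members (11.8%) and the lowest for 45 (16.5%), against 14.8% and 16.4% of all genes. Zfp575 climbed through 0.40, 2.07, 3.09 and 3.97 log2 RPKM from e12.5 to P0, with no overlap between neighbouring stages, and then stood at 2.47 in adults. Zfp580 had 5.99, 6.18 and 6.37 at P0 against 5.05, 5.42 and 5.90 at e17.5, and 4.37 as its adult median. Zfp414 had 5.42, 5.74 and 5.98 at P0 against 4.57, 5.11 and 5.39 at e17.5, ranges that overlapped after quantile normalization. The reverse shape, a low point at birth, was that of Zfp367, whose protein (also ZFF29) is known as an activator in erythroid cells. Its medians were 3.52, 2.64, 1.62, 0.94 and 3.26, so that its adult libraries, 2.67 to 3.40, all lay above those of P0, 0.43 to 1.10. Zfp758 and Zfp58 fell at birth as well, to 0.24 to 0.87 and 0.88 to 1.58 at P0 against 1.23 to 1.77 and 1.89 to 2.49 at e17.5, and both were higher again in adults, at 1.54 to 2.397 and 1.69 to 1.89.

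Further members were named for the largest differences within an interval. At e14.5 against e12.5, Zfp771 and Zfp956 were higher by 1.40 and 1.02, and Zfp568 and Zfp422 fell by 1.20 and 1.11 log2 units, across the change of read type. At e17.5 against e14.5, Zfp704 was higher by 0.84, and Zfp219, a partner of Sox9 in cartilage, and Zfp383 fell by 1.29 and 0.98. At P0, Zfp113 had 1.30 to 1.71 log2 RPKM against 2.04 to 2.42 at e17.5. Zfp593 and Zfp873 fell by 1.56 and 1.49 at P0 against e14.5 and differ in what followed. Zfp593 had an adult median of 1.83 against 0.87 at P0 and Zfp873 one of 0.84 against 0.93, with overlapping ranges in both.

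Among the known developmental regulators of the family, 7 of 9 listed genes were in the table, and 3 were lower and 1 higher in adults against e14.5, where 32.4% of all genes were lower and 30.8% higher. The higher one was Zfp365. Zfp521, which drives embryonic stem cells towards the neural fate, had 0.74, 1.02 and 2.30 log2 RPKM in adults against 3.84, 4.13 and 4.23 at e14.5, and its fall was already present at e17.5, when it had 2.91 to 3.58. Zfp423, a Smad and EBF partner needed for cerebellar development, had 1.60, 1.70 and 2.58 in adults against 3.66, 3.89 and 4.10 at e14.5. Zfp462 had medians of 2.21 in adults and 4.69 at e14.5, with ranges that met by a narrow margin, 3.75 for the highest adult and 3.74 for the lowest e14.5 library.

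Of the imprinting regulators, 2 of 3 were lower in adults against e14.5, as were 32.4% of all genes. Zfp57, which keeps methylation at imprinted loci together with Trim28, had the largest fall between birth and adulthood among members above the floor. It had 0.72, 1.83 and 4.26 log2 RPKM in adults against 5.79, 6.19 and 6.33 at P0, a difference of -4.36, and its medians rose through 4.43, 5.60 and 5.82 before birth with overlapping neighbours. Zfp568, a repressor of a placental promoter of Igf2, had -1.14, -0.83 and -0.13 in adults against 0.92, 1.21 and 1.57 at e14.5. Zfp445, which also maintains imprints, moved little, with all 5 stage medians between 4.89 and 5.12. Zfp217, a subunit of histone demethylase and CtBP complexes, had medians of -0.28 in adults and 2.04 at e14.5 and was lower, and Zfp451, a SUMO ligase, had overlapping ranges.

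The most abundant members took part in the fall. By mean over all libraries they were Zfp428, Zfp207, Zfp146, Zfp664 and Zfp637, at 6.52, 6.10, 5.85, 5.43 and 5.42 log2 RPKM. All 5 were lower in adults than at e14.5, as were 32.4% of all genes. Zfp207, also called BuGZ, a spindle protein that guards the checkpoint factor Bub3, had 4.69, 4.82 and 5.15 in adults against 5.96, 6.31 and 6.48 at e14.5. Zfp146 had medians of 6.39, 6.03, 5.93 and 6.05 up to birth and 3.97, 4.38 and 4.78 in adults. Zfp664 differed in that P0 was its low point, with 5.02 to 5.13 in adults, against 4.46 to 4.70 at P0 and 5.67 to 6.15 at e14.5. At the other end, 23 members had stage medians within 0.5 log2 units of each other, led by Zfp667, Zfp445 and Zfp335 with spreads of 0.23, 0.23 and 0.25. Zfp335, a factor mutated in human microcephaly, thus kept medians between 3.63 and 3.88.

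The corepressor machinery that KRAB zinc finger proteins use was lower in adults too. Of 26 listed genes, 20 were lower and 0 higher in adults against e14.5, where 32.4% of all genes were lower and 30.8% higher, with a median difference of -1.0003, beside -0.81 for the family and -0.10 for all genes. Trim28 had 5.56, 5.58 and 6.24 log2 RPKM in adults against 7.26, 7.45 and 7.75 at e14.5. Its medians were 7.82, 7.45, 6.80, 6.66 and 5.58 from e12.5 to adult, with overlapping ranges at e14.5 and e12.5. Setdb1 held medians of 4.75, 4.59 and 4.74 from e14.5 to P0 and had 3.65 in adults. The largest differences were those of Uhrf1, the partner of the maintenance methyltransferase, at -5.82, of the methyltransferase Dnmt3b at -3.05, of the remodeller Smarcad1 at -2.30 and of the methyltransferase Ehmt1 at -2.17. Uhrf1 is also expressed with cell division, whose markers fell over the same stages, and their part was not tested. At e14.5 against e12.5, across the change of read type, 15 of the 26 were lower and 0 higher, against 22.3% and 23.1% of all genes.

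Other zinc finger families are set beside the same shares of all genes in adults against e14.5, 32.4% lower and 30.8% higher. In that interval, 17 of 37 Zbtb genes were lower and 5 higher, with a median difference of -0.54, and 9 of 19 Zscan and Zkscan genes were lower and 2 higher, with a median of -0.81, the same as that of the Zfp genes. Of 22 genes whose symbol starts with Zfp but carries letters or other suffixes, 8 were lower and 4 higher, with a median of -0.47. Of the Klf genes, which encode the Krüppel-like C2H2 factors, 6 of 14 were higher and 1 lower, with a median of 0.68. Klf9, a factor induced by thyroid hormone, rose with the largest difference of them, 6.10 log2 units, close to the 6.50 of Zfp365.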

How the data were processed

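Bulk forebrain RNA (polyadenylated, stranded libraries) was read as single ends of 50 bp, or as paired ends of 100 bp at e12.5, per the labels. The authors deposited a log RPKM table, taken as log2 because low values at e12.5, e14.5, P0 and in 2 of 6 adult libraries moved in whole-read steps more often on that base than as natural log, which e17.5 values did not show. Per the submitters' processing notes the tools include bcl2fastq and STAR 2.4.2a, with build mm9. Not given in the sources used here are the counter, the prior count and any scaling between libraries. Depth per library is unknown.

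Genes with a mean above -2 log2 RPKM were compared between stages by library ranges and medians (Python 3.11.15, pandas 2.3.3, numpy 2.4.6). The comparison was also run on simulated data with equal spread in both stages. Its shifts were larger than the family's median differences, so smaller shifts were not checked. Table columns could not be matched to samples or genotypes, so genotype comparisons were not run, and no tests between groups or means ± SD are given. The members, lists, motifs and rules were chosen with earlier results of these data known. Among members with a mean of at least 0, the 10 largest adult against e14.5 differences in each direction are named, the 3 largest in each other comparison, the 5 highest means, and up to 4 of each list. Trim28, Setdb1, Zfp143, Zfp235, Zfp831 and the members with the smallest spread were added. Promoter windows and gene order come from RefSeq tables of GRCm38.p6. A planned split by protein domain was not run, as no protein sequences were used here. The list of Chd8 binding peaks was not used.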

Additional observations from a re-analysis of the deposited data

Results flagged for a closer look

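A library was picked out where its gap to the nearest other library of its stage was wide for that stage's whole range, by Dixon's test at the 95% level. Of 168 sets of library values searched, for the family level and 41 named members at e12.5, e14.5, e17.5 and adult, 21 stood out. About 1 in 20 would do so by chance if the sets were independent, but all members share the same libraries. The members were also named from these values, so that rate does not apply to the count. The P0 stage has too many libraries for this test.

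All 9 adult sets were those of the first adult library. It was high for Zfp422 (3.83 log2 RPKM, others at most 3.16), Zfp113 (1.65 log2 RPKM, others at most 0.89), Zfp663 (-0.26 log2 RPKM, others at most -4.75), Zfp558 (2.79 log2 RPKM, others at most 0.25), Zfp41 (3.45 log2 RPKM, others at most 1.35), Zfp184 (2.17 log2 RPKM, others at most 0.66), Zfp229 (1.0015 log2 RPKM, others at most -0.45), Zfp647 (2.29 log2 RPKM, others at most 0.89), and low for Zfp367 (2.67, others at least 3.16). The family level itself was not picked out in any stage.

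In earlier stages the sets were spread over more libraries. The e12.5 library 1 stood out for Zfp428 at 5.54 (others at least 5.72). The e14.5 library 1 stood out for Zfp593 at 1.83 (others at least 2.39). The e14.5 library 2 stood out for Zfp207 at 5.96 (others at least 6.23). The e14.5 library 7 stood out for Zfp618 at 1.49 (others at least 2.42), Zfp58 at 2.87 (others at most 2.54), Zfp112 at 0.23 (others at least 0.55), Zfp647 at 3.87 (others at most 3.61). The e17.5 library 2 stood out for Zfp57 at 7.12 (others at most 6.15), Zfp521 at 2.91 (others at least 3.23). The e17.5 library 8 stood out for Zfp593 at 1.92 (others at most 1.40). The e17.5 library 9 stood out for Zfp219 at 3.65 (others at least 3.98), Zfp773 at 2.66 (others at most 2.397).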

How the results depend on the processing

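Counts of members were recomputed under median centring, quantile normalization, no filter, a mean of at least 0 log2 RPKM, and with suffixed Zfp symbols added, and each stayed within 1.5 times of the reported count. Zfp36, the CCCH gene to be left out, is not among the members. Asking for a median difference of at least 1 log2 unit as well left 4 higher and 4 lower at e14.5 against e12.5, 2 and 2 at e17.5 against e14.5, 0 and 2 at P0 against e17.5, 3 and 26 at P0 against e14.5, 9 and 50 in adults against P0, and 7 and 96 in adults against e14.5. Shares of all genes under this stricter rule were not computed. Using the 3-digit e17.5 libraries alone was an alternative chosen after seeing the data. It gave 23 members (8.49%) higher at e17.5 than at e14.5, against 15.8% of all genes. With the 1-digit ones alone, 10 (3.69%) were higher at P0 than at e17.5, against 7.02% of all genes. Leaving out each library in turn gave 5 to 9 members higher at P0 against e17.5, 98 to 133 lower in adults against P0 and 156 to 174 lower in adults against e14.5, where dropping a library can only add calls. Relative to the all-gene median of the library, the family level was -0.62, -0.54, -0.56, -0.76 and -1.32 from e12.5 to adult, negative at every stage. Of 50 named differences, 49 kept their call under centring and 48 under quantile normalization. The exceptions were Zfp180 in adults against e14.5, at 0.53 and 0.48, and Zfp414 at P0 against e17.5, at 0.58 under quantile normalization. No paired analysis was possible because the columns carry no replicate number that the labels explain.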
